A study of Mus musculus with 18 samples.

Results

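The 3 genes Scgb1b2, Scgb1a1 and Mucl1 were followed through 3 glands. The first 2 are secretoglobins and the last is a mucin-like gene. They were taken by name from the probe annotation, which gave 1 probe to each, so the members are 3 of 8841 genes named by a probe and 3 of the 10500 probes in the value table. All 3 passed the filter on dim probes and are among the 7463 probes tested. Scgb1b2 lay above the 40th percentile of its array on 18 of 18 arrays, Scgb1a1 on 6 (the meibomian arrays) and Mucl1 on 4 (the 3 submandibular placebo arrays and meibomian placebo pool A), so the last 2 entered the test through the groups in which they were high.

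RNA came from male BALB/c mice that had all been orchiectomised, which removes the main source of testosterone, and had then carried a pellet with placebo or testosterone for 21 days. Lacrimal, meibomian and submandibular glands were each measured with placebo and with testosterone, which makes 6 groups of 3 pools, called A, B and C in the labels, on 18 1-colour arrays. Per the labels a pool joined 10 glands of 5 animals, although they also state 4 animals per sex and experiment. Neither the age of the mice, the pellet dose, nor whether pools of 1 letter came from the same mice in different glands is given in the sources used here. A pool averages its animals, so p-values measure the spread between pools only. The arrays are scaled to like medians, from 0.929 to 0.952. Each gland was checked against markers in its placebo pools. The summed intensity of 9 lacrimal acinar probes was 1711 to 1827 in lacrimal, 19.8 to 24.5 in meibomian and 672.0 to 782.6 in submandibular pools. That list is thus shared in large part with the submandibular gland. A sum over 10 sebocyte probes was 392.8 to 400.9 in meibomian, 19.1 to 21.1 in lacrimal and 33.8 to 49.5 in submandibular pools. Both granular tubule probes summed to 680.7 to 776.5 in submandibular, 2.72 to 19.6 in lacrimal and 0.255 to 0.345 in meibomian pools.

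Secretoglobins are small secreted proteins that pair, linked by disulphide bonds, into dimers with a pocket for hydrophobic ligands. In the mouse, Scgb1b genes encode the alpha subunits of androgen-binding protein, found in tears and saliva, which pair with beta or gamma subunits from the Scgb2b genes, and the name comes from binding of steroid hormones. Scgb1a1, also called uteroglobin or CCSP, is the classic secretory product of club cells in the airway. Mucins are secreted or membrane proteins whose serine- and threonine-rich stretches carry dense O-linked sugars that hold water on wet surfaces. Mucl1 is named for likeness to them, with the older name Spt2, and the RefSeq table for assembly GRCm38.p6 lists it as a transcribed pseudogene that neighbours the mucin-like genes Glycam1 and Mucl2 on chromosome 15.

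The identity of the Scgb1b2 signal is limited by its family. The RefSeq table holds 19 Scgb1b genes, 14 of them protein coding, and 29 Scgb2b genes, all on chromosome 7, where Scgb1b2 lies among Scgb2b1, Scgb2b2, Scgb2b3 and Scgb1b3. Only 1 Scgb1b gene and no Scgb2b gene had a named probe, and the probe's own sequence was not used here. Intensity at the Scgb1b2 probe can therefore include transcripts of near-identical relatives, and the partner subunits were not measured by a named probe.

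The sequence just before the Scgb1b2 start is shown because this gene gave the highest value on every lacrimal array. The 250 bases upstream, from RefSeq on GRCm38.p6 (chr7:31291817-31292066, minus strand), are written with the motif TATAAA in capitals:

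Scgb1b2: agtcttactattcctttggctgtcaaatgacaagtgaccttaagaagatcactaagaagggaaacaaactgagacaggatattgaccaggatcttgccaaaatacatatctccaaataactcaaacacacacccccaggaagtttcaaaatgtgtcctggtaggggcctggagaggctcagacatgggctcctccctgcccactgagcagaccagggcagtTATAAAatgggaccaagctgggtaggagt

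The motif begins at base -29 relative to the start. TATAAA on the gene's strand wholly within the stretch from 40 to 16 bases before the start was found in 1.99% of 32851 upstream windows, and TATAAA or its complement TTTATA anywhere in the 250 bases in 12.4%. AGAACA or its complement TGTTCT, the core of a steroid receptor half-site, is not in the Scgb1b2 window, while 16.1% of all windows hold it. It is in 3 of 8 other Scgb1b windows and 16 of 20 Scgb2b windows in the table. The other Scgb1b windows were 44.9% to 79.3% identical to that of Scgb1b2, with Scgb1b12 the highest, and the Scgb2b windows 46.6% to 53.4%. Secretoglobin windows outside these families were alike to the latter, at 49.0% for Scgb2a2, 49.5% for Scgb3a1 and 51.5% for Scgb1c1. The identity of unrelated windows was not measured. Scgb1a1 and Mucl1 are named without a sequence.

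The members differed in where they were high. Scgb1b2 was high in lacrimal and submandibular glands and low in meibomian glands, Scgb1a1 was high in meibomian glands and near the bottom of the scale in the others, and Mucl1 was highest in submandibular glands with placebo. The only testosterone difference of a member that passed the test below was that of Mucl1 in the submandibular gland, a 5.63-fold fall by the group means. In that gland Mucl1 measured 0.389 to 0.453 with testosterone, a dim level below the 40th percentile of the arrays. In limma at a Benjamini-Hochberg adjusted p of 0.05, 1 of 3 members was called there, where 13.8% of all tested probes were called and 5.25% were called lower. In the lacrimal gland 0 of 3 members were called (0 of 3 also at an unadjusted p under 0.05) against 28.1% of all probes. In the meibomian gland 0 of 3 were called (2 of 3 at an unadjusted p under 0.05), where 0.59% of all probes were called.

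**Figure D1:**
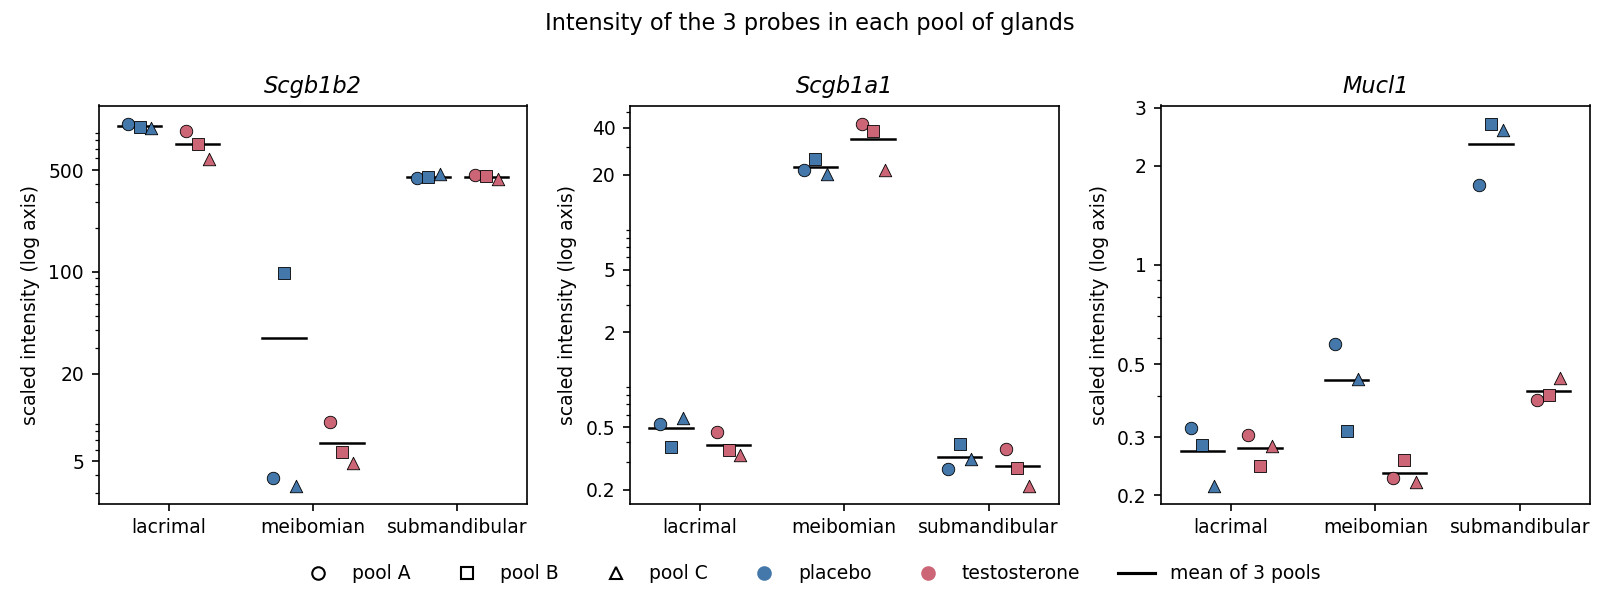
Scaled intensity (log axis) of the Scgb1b2, Scgb1a1 and Mucl1 probes in each pool, by gland and treatment; symbols are pools A, B and C, colours the treatment, and lines the mean of 3 pools. Meibomian placebo pool B stands at 98.3 for Scgb1b2 while the other 5 meibomian pools lie between 3.40 and 9.35, and the submandibular placebo and testosterone pools of Mucl1 do not overlap.

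Scgb1b2, named for an alpha subunit of androgen-binding protein, measured 1042, 984.5 and 976.8 in lacrimal glands given placebo (pools in the order A, B, C, here and below). With testosterone it measured 930.5, 750.8 and 597.5. The groups did not overlap, the pools with testosterone being lower and more spread. The mean was 1001 ± 35.7 (SD, n = 3) with placebo and 759.6 ± 167 with testosterone, which is 75.9% of the placebo mean. On the log2(intensity + 0.174) scale used for all tests, on which folds of dim probes are understated, the difference was -0.42 ± 0.81 (SE), with an adjusted p of 0.75 in limma. That SE is shared by all groups of the fit and was set largely by a meibomian pool described below; without that pool the difference was -0.42 ± 0.20 with an adjusted p of 0.137, and with the lacrimal arrays fitted alone -0.42 ± 0.20 with 0.166. None of these passed the threshold.

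The bright end of the lacrimal arrays moved by a like amount. Scgb1b2 in the testosterone pools stood at 93.0%, 75.0% and 59.7% of its placebo mean. The 99th percentile of the same arrays stood at 89.1%, 74.7% and 67.5% of its own placebo mean, for a mean of 77.1%. Lpo, the lactoperoxidase of tears and saliva, stood at 84.7%, 75.4% and 64.8%, and Sval2, a seminal vesicle antigen-like secreted protein, at 90.0%, 69.1% and 57.5%. All of these were highest in pool A and lowest in pool C, and Scgb1b2 is itself the maximum of each lacrimal array, so quantile normalization returns a difference of 0.00 for it by construction. The part of the arrays' range in the Scgb1b2 values was not tested.

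**Figure D2:**
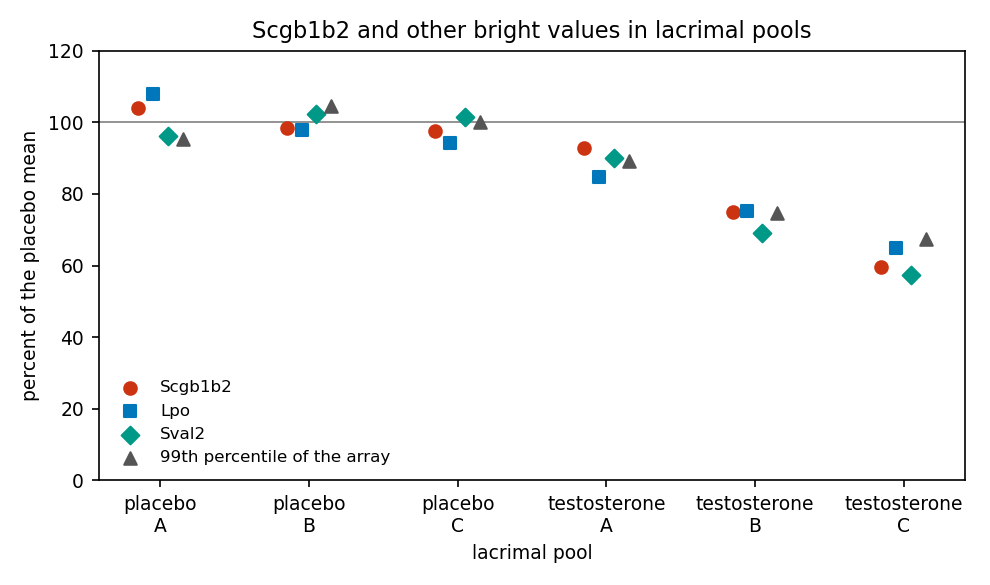
Scgb1b2, Lpo, Sval2 and the 99th percentile of the array in the 6 lacrimal pools, each as a percentage of its own mean over the 3 placebo pools (horizontal axis, pools by treatment). With testosterone all 4 quantities lie below 100%, between 84.7% and 93.0% in pool A and between 57.5% and 67.5% in pool C.

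Other markers stood beside the lacrimal values. Of 9 lacrimal acinar probes 0 were called higher and 5 lower with testosterone, where 28.1% of all tested probes were called in either direction. Their median difference was -0.77, against -0.07 over all tested probes. The summed intensity of the 9 was 1711 to 1827 with placebo and 677.7 to 879.0 with testosterone. Most of that fall lay in the bright probes Pnliprp1 (mean 524.4 with placebo, 1.03 with testosterone) and Car6 (546.9 and 276.6). Dmbt1, Ltf and Pigr were also called lower. Lpo (-0.422), Sox10 (-0.439), Aqp5 (-0.235) and Bhlha15 (0.01) were not called. Bhlha15 averaged 13.3 with placebo and 13.4 with testosterone. How far these markers bear on the Scgb1b2 values was not tested. In bulk RNA, fewer cells of a type and less RNA per cell cannot be told apart. Salivary transcripts were high in 2 lacrimal pools, placebo A and testosterone C: Klk1b5, a granular tubule kallikrein, measured 14.7 and 10.7 there against 0.316 to 0.648 in the other 4, and the amylase Amy1 119.7 and 85.6 against 1.97 to 10.7. These are the highest and the lowest lacrimal pools for Scgb1b2. Without both pools, an alternative chosen after the data were seen, the Scgb1b2 difference was -0.23 ± 1.07 with an adjusted p of 0.918.

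In the submandibular gland Scgb1b2 measured 439.3, 446.6 and 466.7 with placebo and 459.4, 453.1 and 431.4 with testosterone. These were the steadiest values of the probe, with overlapping groups and means of 450.9 ± 14.2 and 448.0 ± 14.7. The difference was -0.01 ± 0.81, and with the submandibular arrays fitted alone -0.01 ± 0.09 with an adjusted p of 0.969 in limma. The 99th percentile of the submandibular arrays also varied little, from 128.0 to 136.6.

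In the meibomian gland Scgb1b2 measured 3.82, 98.3 and 3.40 with placebo. Pools given testosterone measured 9.35, 5.76 and 4.83. Pool B was 27.2 times the mean of the 2 other placebo pools, 3.61, and above every pool with testosterone. With it the means were 35.2 ± 54.7 and 6.65 ± 2.39 and the difference was -0.77 ± 0.81 (adjusted p = 0.725). Without it the sign turned: the difference was 0.80 ± 0.22, all 3 pools with testosterone lay above both remaining placebo pools, and the adjusted p was 0.237. The direction of Scgb1b2 in the meibomian gland thus rested on 1 pool. Without that pool 2 meibomian probes passed the threshold in place of 44.

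Pool B was searched for other lacrimal transcripts. In it 8 probes were above 0.5 and at least 2 times the highest of the other 5 meibomian pools, and 4 of those 8 (Scgb1b2, Sval2, Pnliprp1 and Lpo) were among the 200 probes above 100 in lacrimal placebo glands. Each of the other meibomian pools had 1 to 13 such probes, of which 0 were above 100 in the lacrimal gland. Sval2 measured 3.26 in pool B and 0.0126 to 0.0459 in the others. Pnliprp1, a lipase-related protein that is abundant in the lacrimal gland, measured 1.88 against 0.139 to 0.314, and Lpo 0.707 against 0.264 to 0.331. The excesses were unequal in size: as a share of the lacrimal placebo mean they were 9.46% for Scgb1b2, 0.506% for Sval2, 0.317% for Pnliprp1 and 0.0876% for Lpo. The 9 lacrimal acinar probes together summed to 19.8 to 24.5 over the 3 placebo pools. The part of lacrimal tissue in the pool B value was not tested.

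**Figure D3:**
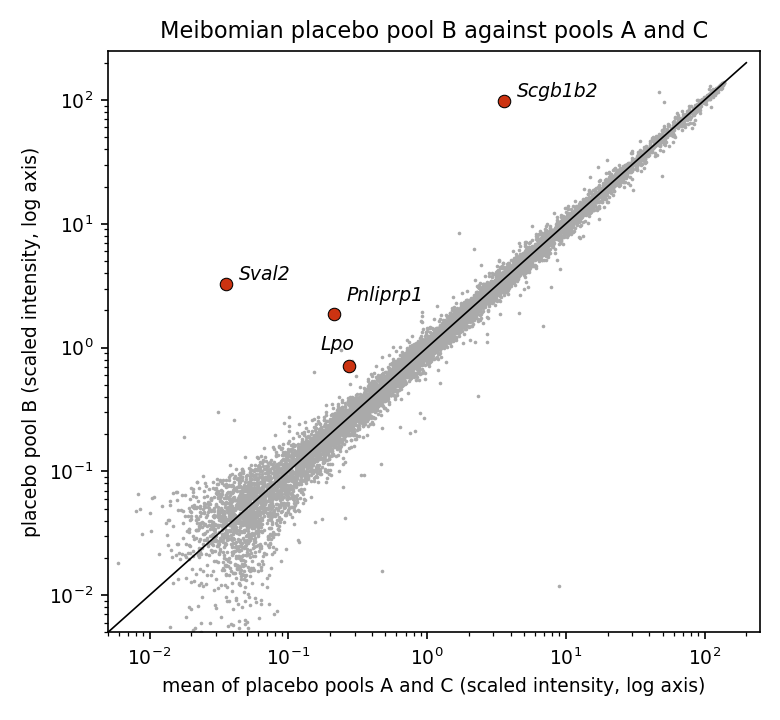
Intensity of every probe with positive values in meibomian placebo pool B (vertical, log axis) against the mean of placebo pools A and C (horizontal, log axis); the line marks equality and each grey point is a probe. Scgb1b2 lies at 98.3 against 3.61, and Sval2, Pnliprp1 and Lpo, drawn in the same colour, also lie above the line.

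The order of the glands for Scgb1b2 was lacrimal, submandibular, meibomian with either treatment. With placebo the lacrimal mean was 2.22 times the submandibular one, and with testosterone 1.70 times. That step did not pass the threshold with all arrays (adjusted p = 0.265 and 0.464 in limma), and did without meibomian pool B, at 1.15 ± 0.20 (adjusted p = 0.000244) and 0.74 ± 0.20 (0.00574) on the log2 scale. The lacrimal and submandibular pools did not overlap for this probe in either treatment. Meibomian glands were lower than both: lacrimal minus meibomian was 6.48 ± 0.81 with placebo (adjusted p = 2.27e-06) and 6.83 ± 0.81 with testosterone (1.19e-06), and meibomian minus submandibular -5.33 (2.35e-05) and -6.09 (5.81e-06). Against placebo pools A and C the lacrimal mean was 277.4 times the meibomian one, and the submandibular mean 124.9 times. Between glands 67.9%, 44% and 66.6% of all probes were called with placebo (lacrimal against meibomian, lacrimal against submandibular, meibomian against submandibular) and 69.2%, 52.5% and 67.3% with testosterone, so a call there is common. Meibomian arrays also had a lower maximum, 134.6 to 219.1 against 597.5 to 1042 on lacrimal and 636.3 to 742.6 on submandibular arrays, and gland and array range cannot be told apart.

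The testosterone effect on Scgb1b2 was not called different between any pair of glands with all arrays, where 17.6% (lacrimal minus meibomian), 24% (lacrimal minus submandibular) and 7.4% (meibomian minus submandibular) of all probes were. Lacrimal minus meibomian was 0.35 ± 1.14 (adjusted p = 0.888 in limma). Without meibomian placebo pool B it was -1.22 ± 0.30 with an adjusted p of 0.0121, which turns the sign and passes the threshold. In that setting 1049 probes were called for this difference. The 99th percentile of the arrays moved as well with testosterone. It fell to a mean of 77.1% of placebo in lacrimal pools and was 148.1, 122.6 and 105.9 in meibomian pools, against 97.7 to 100.5 with placebo. The part of the range in this difference was not tested. Lacrimal minus submandibular was -0.41 ± 1.14 (0.842), and -0.41 ± 0.28 (0.329) without meibomian placebo pool B.

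**Figure D4:**
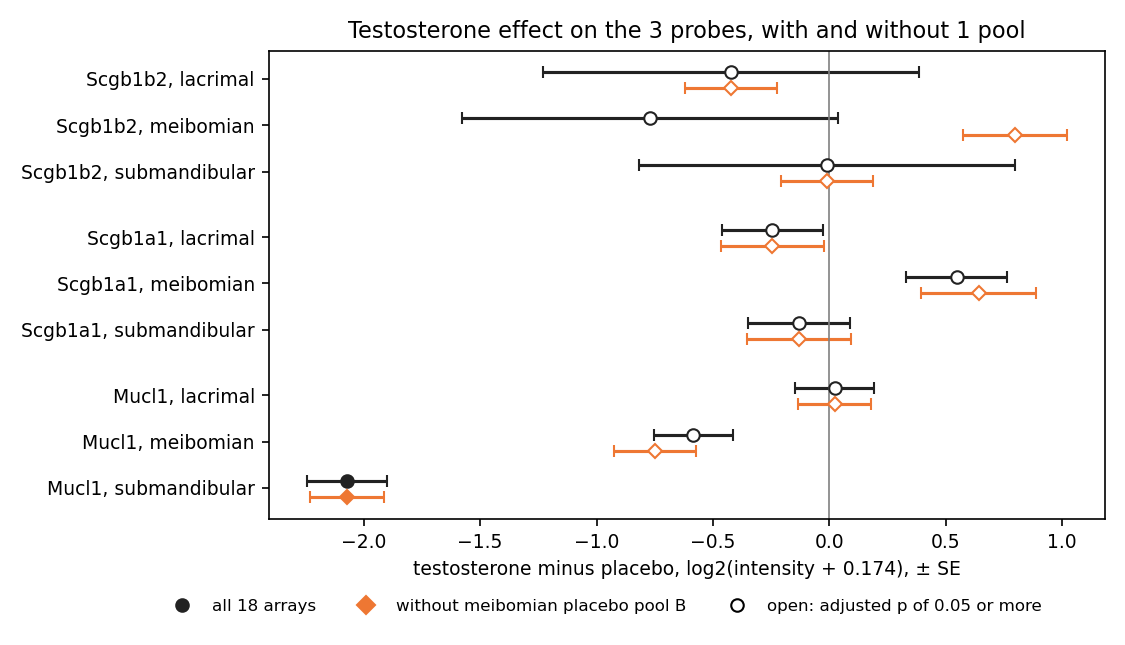
Testosterone minus placebo for each member and gland on the log2(intensity + 0.174) scale (horizontal axis), ± SE, from the limma fit of all 18 arrays (black circles) and of the 17 arrays without meibomian placebo pool B (orange diamonds); filled symbols have an adjusted p under 0.05. Leaving out the pool turns Scgb1b2 in the meibomian gland from -0.77 to 0.80 and narrows all its error bars, and Mucl1 in the submandibular gland is filled in both.

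Scgb1a1, the club cell protein, measured 21.5, 25.4 and 20.2 in meibomian glands given placebo and 42.4, 38.0 and 21.6 in those given testosterone. Pools A and B with testosterone lay above every placebo pool, while pool C lay among them, so the groups overlapped. The means were 22.4 ± 2.69 and 34.0 ± 11.0, a ratio of 1.52, and the difference of 0.55 ± 0.22 was not called (unadjusted p = 0.0233, adjusted p = 0.286 in limma). Without meibomian testosterone pool C it was 0.84 ± 0.19 with an adjusted p of 0.0378. With array weights, which let limma down-weight variable arrays, it was 0.69 ± 0.14 with an adjusted p of 0.00228. Calls were more common in both settings: 170 meibomian probes without that pool and 1993 with array weights, in place of 44. Whether the difference passed thus depended on pool C and on how the arrays were weighted.

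The range of the meibomian arrays with testosterone was likewise widest in pool A and narrowest in pool C. The 99th percentile was 148.1, 122.6 and 105.9 there, against 97.7 to 100.5 with placebo, and the maximum was 219.1, 178.0 and 147.7 against 134.6 to 142.9. With quantile normalization within each gland the Scgb1a1 difference was 0.38 with an adjusted p of 0.438. The part of the range in the Scgb1a1 values was not tested.

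In the other glands Scgb1a1 was near the bottom of the scale. Lacrimal pools measured 0.524, 0.373 and 0.571 with placebo and 0.467, 0.355 and 0.330 with testosterone, and submandibular pools 0.269, 0.389 and 0.314 with placebo and 0.362, 0.274 and 0.212 with testosterone. All groups overlapped, and the 10th percentile of positive values on those arrays was 0.212 to 0.316. The differences were -0.25 ± 0.22 (adjusted p = 0.451) and -0.13 ± 0.22 (0.75). The effect in the lacrimal gland minus that in the meibomian gland was -0.79 ± 0.31 (0.09), and meibomian minus submandibular 0.68 ± 0.31 (0.211), neither of them called with all arrays. Without meibomian testosterone pool C both passed the threshold, at -1.09 ± 0.25 (0.00626) and 0.97 ± 0.25 (0.0267).

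For this gene the meibomian gland came first, and the lacrimal and submandibular glands behind it did not differ beyond their spread. No fold of the meibomian mean over the others is given, since their levels lie near the 10th percentile of their arrays. The probe passed the filter only through the meibomian arrays, which are 1 side of each difference from that gland. In limma, lacrimal minus meibomian was -5.09 ± 0.22 with placebo (adjusted p = 4.29e-12) and -5.89 ± 0.22 with testosterone (5.51e-13). Meibomian minus submandibular was 5.50 (2.17e-12) and 6.18 (5.39e-13). Lacrimal minus submandibular was 0.41 ± 0.22 (0.141) and 0.29 ± 0.22 (0.274).

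Markers of other epithelia were set beside the meibomian Scgb1a1 values. Among 9 airway markers 7 were measured, and 3 of these were tested with 0 called in the meibomian gland, against 0.59% of all tested probes. Their sum was 92.6 to 113.6 with placebo and 104.3 to 145.6 with testosterone. Most of it came from Cyp2f2, an enzyme of club cells that measured 85.0 to 123.8 there. This was not particular to the meibomian gland. The sum was 151.9 to 156.6 in lacrimal and 160.5 to 184.3 in submandibular placebo pools, where Scgb1a1 was near the bottom of the scale. With testosterone it was 45.4 to 57.5 and 142.4 to 145.7. Cyp2f2 measured 139.2 to 143.1 in lacrimal and 149.5 to 171.1 in submandibular placebo pools. In meibomian pools the retinal dehydrogenase Aldh1a1 measured 6.72 to 12.2 with placebo and 10.0 to 20.2 with testosterone (0.48, adjusted p = 0.373 in limma). The surfactant protein gene Sftpd measured 0.464 to 0.616 and 0.678 to 1.12, with no overlap (0.54, adjusted p = 0.301). The ciliated-cell factor Foxj1 measured 0.0102 to 0.0641, the airway secreted protein Bpifa1 0.0154 to 0.0686 and the surfactant genes Sftpa1 and Sftpc at most 0.220 and 0.116, against a 10th percentile of 0.0530 to 0.0758 on those arrays. Of 6 markers of conjunctival goblet cells, the mucus cells on the inner face of the eyelid, 4 were tested and 0 called in the meibomian gland, and their summed level was 60.4 to 103.8 with placebo and 64.0 to 112.9 with testosterone. Muc5ac, their gel-forming mucin, measured 39.1, 46.4 and 29.8 with placebo and 43.1, 25.4 and 37.1 with testosterone. Tff1, a trefoil peptide secreted with mucin, measured 22.3, 32.6 and 17.5 with placebo and 40.8, 22.8 and 23.7 with testosterone. With testosterone pool A was the highest for Muc5ac, Tff1 and Scgb1a1, and also for the 99th percentile of the array, at 148.1. The other pools did not follow the same order: Scgb1a1 was 38.0 in B and 21.6 in C, while Muc5ac was lowest in B. Other goblet markers were higher elsewhere with placebo: Agr2 had a mean of 312.4 in lacrimal against 17.9 in meibomian glands, and Spdef 11.0 in submandibular against 0.598. Foxa3 and Clca1 were not tested. The part of goblet cells in the Scgb1a1 values was not tested.

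Mucl1 measured 1.75, 2.69 and 2.58 in submandibular glands given placebo and 0.389, 0.403 and 0.453 in those given testosterone. Every placebo pool was above every pool with testosterone, and the lowest placebo pool was the one farthest from its group. The mean fell from 2.34 ± 0.512 to 0.415 ± 0.0339. On the log2 scale this was -2.07 ± 0.17, with an adjusted p of 3.67e-07 in limma, and 0.00227 with the submandibular arrays fitted alone. The probe passed the filter only through the placebo arrays of this gland and meibomian placebo pool A. With no filter on dim probes the adjusted p in limma was 3.75e-07. The 10th and 40th percentiles of the testosterone arrays were 0.212 to 0.235 and 0.560 to 0.592, so the level with testosterone lay in the dim range between them.

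Markers of mucous cells were read beside Mucl1 in the submandibular gland. Of 3 probes of the list for sublingual and other mucous salivary cells 1 was called lower and 0 higher (median -1.25, against 0.01 over all probes), and their sum was 32.6 to 37.2 with placebo and 10.4 to 20.8 with testosterone. Agr2, a disulphide isomerase needed to make mucin, was the one called and measured 13.5, 12.7 and 14.7 with placebo and 7.37, 7.73 and 6.68 with testosterone. Spdef, a transcription factor of mucous cells, measured 10.3, 10.6 and 12.2 with placebo and 5.15, 5.14 and 3.54 with testosterone. Over all tested probes in this gland 13.8% were called and 5.25% were called lower. Of 3 submandibular acinar probes 0 were called, while all 4 myoepithelial probes were called higher. The part of these cells in the fall of Mucl1 was not tested.

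In meibomian pools Mucl1 measured 0.575, 0.313 and 0.449 with placebo and 0.226, 0.256 and 0.219 with testosterone. The groups did not overlap, with pools with testosterone lower. The means were 0.446 ± 0.131 and 0.234 ± 0.0199, and the difference of -0.58 ± 0.17 was not called (adjusted p = 0.143, and 0.0659 with the meibomian arrays alone). With array weights in limma it was -0.56 ± 0.13 with an adjusted p of 0.00618, a setting in which 1993 meibomian probes were called in place of 44. Lacrimal pools measured 0.319, 0.284 and 0.214 with placebo and 0.305, 0.246 and 0.282 with testosterone. They overlapped fully, the difference was 0.02 ± 0.17 (adjusted p = 0.94), and the 10th percentile of those arrays was 0.212 to 0.316.

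The fall of Mucl1 differed between glands. The effect in the lacrimal minus that in the submandibular gland was 2.09 ± 0.24 (adjusted p = 8.22e-06 in limma), and meibomian minus submandibular 1.49 ± 0.24 (0.00105). Lacrimal minus meibomian was 0.61 ± 0.24 (0.0984), which was not called with all arrays; without meibomian placebo pool B it was 0.77 ± 0.24 (0.0417). With placebo, submandibular glands stood highest, with a mean of 2.34 beside 0.272 in lacrimal and 0.446 in meibomian glands, the lacrimal level lying near the 10th percentile of its arrays (lacrimal minus submandibular -2.48 ± 0.17, adjusted p = 5.01e-09; meibomian minus submandibular -2.02 ± 0.17, 2.93e-08). Lacrimal minus meibomian was -0.46 ± 0.17 (0.0256), a call lost without lacrimal placebo pool C, meibomian placebo pool A or meibomian placebo pool C. With testosterone the 3 glands lay closer: the submandibular mean of 0.415 stood beside 0.278 in lacrimal glands (lacrimal minus submandibular -0.38 ± 0.17, adjusted p = 0.0703, and 0.0383 without submandibular placebo pool A) and 0.234 in meibomian glands (meibomian minus submandibular -0.53 ± 0.17, 0.012).

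Genes with patterns most like each member were named by Pearson correlation of log2 values over the 18 arrays, which share their glands, so most of each value reflects differences between glands. For Scgb1b2 these were Lpo (0.964), the simple-epithelium keratin Krt18 (0.958), the caspase Casp6 (0.955), the endosomal GTPase Rab4a (0.953) and the claudin Cldn10 (0.953). For Scgb1a1 they were Dmkn, the defensin Defb1 and S100a14 (each 0.996), and Teddm3 and the steroid dehydrogenase Hsd3b6 (each 0.995). Dmkn, for instance, measured a mean of 103.8 in meibomian placebo glands and 0.585 in lacrimal ones. For Mucl1 they were the forkhead factor Foxo1 (0.94), the sugar-phosphate transporter Slc37a2 (0.939), the heparan sulfotransferase Hs3st1 (0.914), the glycogen-targeting phosphatase subunit Ppp1r3c (0.894) and the protein kinase A subunit Prkar2b (0.881). The 5 genes nearest to Mucl1 were chosen on values that include its submandibular fall; their own differences there were -1.68, -1.72, -1.30, -1.61 and -1.10.

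The rest of both families was read from lists. Of 26 secretoglobin names listed 3 had a tested probe, the third being Scgb3a1, a small secretoglobin of airway and gland epithelia. Scgb3a1 measured 0.675, 0.421 and 0.426 in lacrimal placebo pools and 1.95, 2.74 and 2.21 with testosterone, with no overlap. It rose by 1.87 ± 0.19 (adjusted p = 8e-07), was the only one of the 3 called in the lacrimal gland, and differed by 0.30 (0.49) and 0.15 (0.644) in the meibomian and submandibular glands. In those glands 0 of the 3 were called, with 1 and 0 at an unadjusted p under 0.05. Over all tested probes 28.1%, 0.59% and 13.8% were called in lacrimal, meibomian and submandibular glands. The list's medians were -0.25, 0.30 and -0.01 for lacrimal, meibomian and submandibular glands, against -0.07, 0.06 and 0.01 over all tested probes.

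Of 12 measured mucin and mucin-like probes 11 were tested, Mucl1 included. In the lacrimal gland 1 was called higher and 0 lower, where 28.1% of all tested probes were called. Ovgp1, the mucin-like oviductal glycoprotein, rose from 2.37 ± 0.571 to 5.37 ± 0.472 (1.15 ± 0.18, adjusted p = 0.000147 in limma). In the submandibular gland 1 was called higher and 1 lower, where 13.8% of all tested probes were called. Muc13, a membrane mucin, measured 7.33, 6.61 and 6.61 with placebo and 13.9, 11.9 and 14.9 with testosterone, and rose by 0.96 ± 0.23 (0.0103), while Mucl1 fell. In the meibomian gland 0 were called (2 at an unadjusted p under 0.05), and Muc5ac and the membrane mucin Muc1, both highest in this gland, differed by -0.14 and -0.23 there. The sialomucins Cd34, Cd164, Emcn, Selplg and Madcam1 and the intestinal mucin Muc3 were called in none of the 3 glands, with differences from -0.485 (Selplg, meibomian) to 0.269 (Madcam1, lacrimal), and Podxl was measured but too dim to test. Median differences over the list were 0.02, -0.10 and 0.00 in lacrimal, meibomian and submandibular glands, against -0.07, 0.06 and 0.01 over all tested probes.

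**Figure D5:**
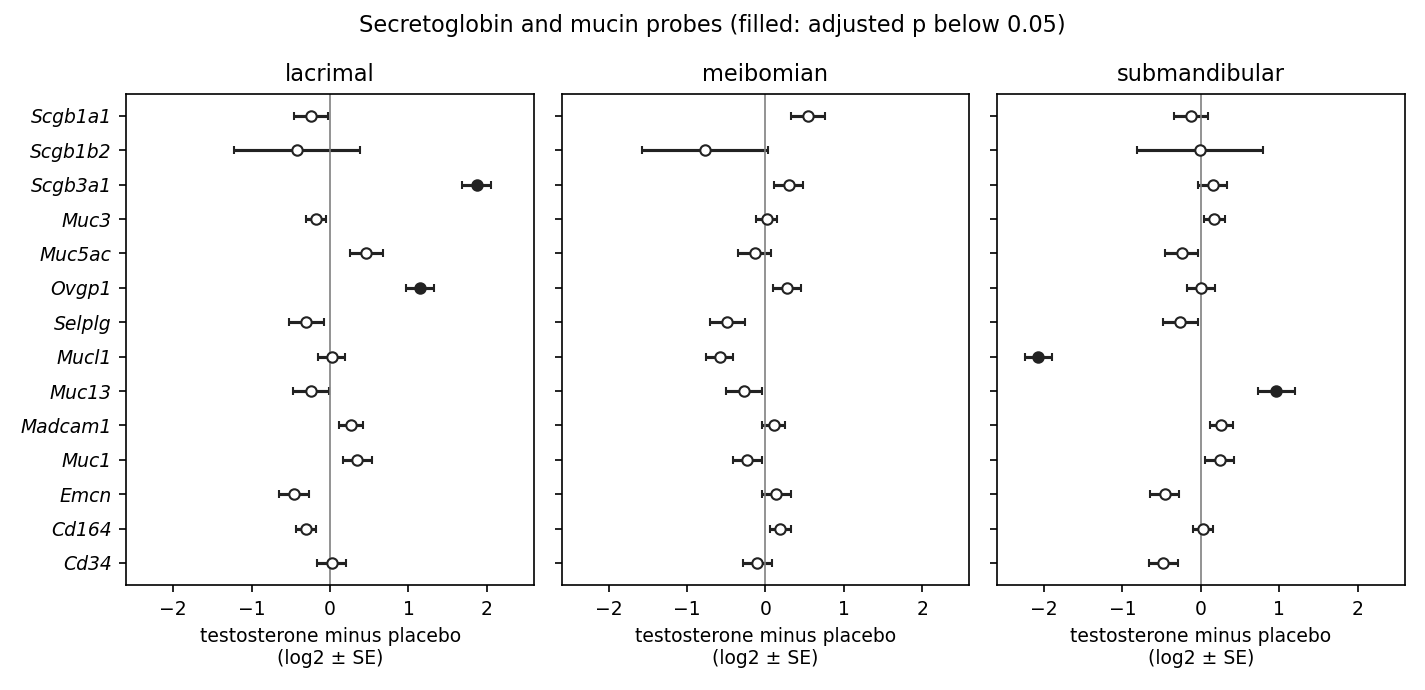
Testosterone minus placebo on the log2(intensity + 0.174) scale, ± SE, for the 3 secretoglobin and 11 mucin or mucin-like probes tested (vertical axis) in each gland; filled points have an adjusted p under 0.05 in limma. Filled points are Scgb3a1 and Ovgp1 in the lacrimal gland and Mucl1 and Muc13 in the submandibular gland, with Mucl1 at -2.07 the only filled point below 0.

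Enzymes that assemble mucin sugars and the factors of goblet cells gave 13 tested probes. In the submandibular gland 3 were called higher and 4 lower, where 13.8% of all tested probes were called. The sialyltransferase St6galnac2, which caps O-linked sugars, rose from 1.27 ± 0.426 to 32.0 ± 8.26, and St3gal1, another sialyltransferase, fell by 2.63 on the log2 scale. St6galnac1 rose by 1.32 and the forkhead factor Foxa2 fell by 1.12. In the lacrimal gland, where 28.1% of all tested probes were called, 1 rose, St6galnac2 by 3.03, and 1 fell, Foxa2 by 1.25. In the meibomian gland 0 were called (3 at an unadjusted p under 0.05).

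Carriers of lipophilic ligands, a role secretoglobins share with lipocalins, gave 10 tested probes. In the lacrimal gland 4 were called higher and 2 lower, where 28.1% of all tested probes were called. The 4 largest changes among them were rises. Bpifb2 rose by 3.91, the transthyretin gene Ttr by 2.52, the prostaglandin D synthase Ptgds by 0.69 and the lipocalin Lcn4 by 0.69. In the submandibular gland Ptgds rose from 0.475 ± 0.0688 to 40.9 ± 8.02 and Ttr by 2.97, while the retinol carrier Rbp4 fell by 1.08. In the meibomian gland 0 were called (2 at an unadjusted p under 0.05). Other secreted tear and saliva proteins gave 13 tested probes, of which 2 were called higher and 4 lower in the lacrimal gland and 2 higher in the submandibular gland. Over all tested probes 28.1% were called in the lacrimal, 13.8% in the submandibular and 0.59% in the meibomian gland. The submaxillary gland protein Smr2 rose in both, by 2.07 and 4.04, and the scavenger protein Dmbt1 fell by 2.36 in the lacrimal gland. In the meibomian gland 0 were called (1 at an unadjusted p under 0.05).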

How the data were processed

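Values are the deposited probe intensity on a linear scale, 1 column per array; array type, background correction and scaling are not given in the sources used here, and the deposited scaling was kept. The value -1 (37 to 118 probes per array) was read as no value, and other values below 0 were set to 0. Tests used log2(value + 0.174), the offset being the 10th percentile of positive values. Probes needed at least 2 values in each group and a value above the array's 40th percentile on at least 3 of 18 arrays; 146 were left out as missing and 2891 as dim. The model (limma 3.58.1 in R 4.3.3) had 1 mean for each of 6 groups and 12 residual degrees of freedom over 18 arrays; variances were moderated by eBayes with a trend, and p-values adjusted by Benjamini-Hochberg over the 7463 probes. The same code was tested on simulated data. The number of arrays limits the precision.

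Members and gene lists were chosen with earlier results of these data known. Named genes are the members, the 5 probes most correlated with each, and all measured secretoglobins and mucins. Of other lists, up to 4 called members per gland are named. Genes beside a result were named after their values were seen. These are Lpo, Sval2, Pnliprp1, Klk1b5, Amy1, Agr2, Spdef and the lacrimal acinar, airway and goblet markers. Alternatives were each gland alone, other offsets and filters, quantile normalization, array weights, no trend, -1 as 0, replicate letter as a block and leaving out each array. Pools of 1 letter were not treated as paired: correlations of their deviations from the group means ran from -0.11 to 0.14 over 9 pairs of treatments within a gland, and from -0.065 to 0.13 over 18 pairs of glands within a treatment. Lists of other genes were not tested as sets. Sequence windows were compared with Biopython 1.88.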

Additional observations from a re-analysis of the deposited data

Results flagged for a closer look

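The measured testosterone effect on Mucl1 differed between glands by a test of the difference itself, but dim lacrimal levels left little room for a measured fall. Meibomian placebo pools measured 0.313 to 0.575, above a 10th percentile of 0.0530 to 0.0572 on those arrays. The part of the placebo level in these differences was not tested. The effect in the lacrimal minus that in the submandibular gland was 2.09 ± 0.24 (adjusted p = 8.22e-06 in limma), and that in the meibomian minus that in the submandibular gland 1.49 ± 0.24 (adjusted p = 0.00105). Mucl1 was lower with testosterone in 3 of 3 submandibular pools than in any placebo pool there, while the lacrimal pools overlapped. Lacrimal placebo pools measured 0.214 to 0.319, with a 10th percentile of 0.308 to 0.316 on those arrays. Groups of 3 pools are too small for a rule on single outlying pools.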

How the results depend on the processing

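Of 36 results on the members, 18 kept their direction and their side of the threshold under every alternative run. Among them are the fall of Mucl1 in the submandibular gland (-2.35 to -1.43), both differences of that fall from the other glands, and the meibomian differences of Scgb1a1 and Scgb1b2 from both other glands with either treatment. Mucl1 and Scgb1a1 passed the filter through the groups in which they were high, and the alternatives included a run with no filter on dim probes. The cause of the changes below was not tested. With array weights the Mucl1 effect was -0.004 in the lacrimal and -0.56 in the meibomian gland, and for Scgb1a1 0.69 in the meibomian gland, -0.95 for lacrimal minus meibomian and 0.86 for meibomian minus submandibular, all but the first now called. With quantile normalization over all arrays Mucl1 with testosterone was -0.42 (lacrimal minus meibomian, sign turned), -0.59 (lacrimal minus submandibular, now called) and -0.17 (meibomian minus submandibular, no longer called), and the Scgb1b2 effect, lacrimal minus submandibular, turned to 0.053. Quantile normalization within glands gave 0.091 for that, 0.012 for the same difference of Scgb1a1 and 0.79, now called, for the Mucl1 effect, lacrimal minus meibomian. A 4-fold larger offset took the placebo difference of Mucl1, lacrimal minus meibomian, to -0.23, no longer called.

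Leaving out each array moved the Scgb1b2 effect from -1.59 to 0.80 in the meibomian and from -0.028 to 0.018 in the submandibular gland, from -1.22 to 1.17 for lacrimal minus meibomian and from -1.58 to 0.81 for meibomian minus submandibular. Its lacrimal minus submandibular level ran from 1.12 to 1.18 with placebo and from 0.58 to 0.90 with testosterone. For Scgb1a1 the effect ran from 0.36 to 0.84 in the meibomian gland, from -1.09 to -0.60 for lacrimal minus meibomian, from -0.25 to 0.007 for lacrimal minus submandibular and from 0.49 to 0.97 for meibomian minus submandibular. For Mucl1 it ran from -0.075 to 0.098 in the lacrimal gland and from 0.46 to 0.77 for lacrimal minus meibomian. The level of Mucl1 ran from -0.62 to -0.31 (lacrimal minus meibomian, placebo) and from -0.43 to -0.33 (lacrimal minus submandibular, testosterone).

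Called meibomian probes, 44 with all arrays, were 246 with the gland alone, 77 with the larger offset, 28 with quantile normalization over all arrays, 1993 with array weights and 0 to 170 without 1 array; without meibomian testosterone pool C they were 170. The submandibular count of 1029 was 409 with the gland alone. With array weights 2079 probes differed in effect between lacrimal and meibomian glands and 1275 between meibomian and submandibular glands, and without 1 array the latter count was 360 to 704. With the replicate block, the pool letter within a gland, the meibomian count was 0, and no call on a member changed: Mucl1 in the submandibular gland stayed at -2.07. By the correlations of their deviations, pool letters were not treated as pairing samples within or between glands. At 3 pools a group, dim levels of Mucl1 and Scgb1a1 near the 10th percentile of an array could not be resolved further.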
